A study of Mus musculus with 16 samples.

Results

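The comparison described here is that of 7 Ctnnb1-mutated liver tumours with 3 pieces of non-tumour liver, all from mice under phenobarbital, which makes 10 of the 16 samples of the series. The arrays were chosen by their titles, and every gene named by a single symbol was tested, 18193 in all. The animals were male C3H/HeJ mice in which tumours had been started with diethylnitrosamine, a liver carcinogen, at 10 or 90 µg per g body weight given at 2 or 6 weeks of age. The tumours carry a mutated Ctnnb1, which encodes beta-catenin, and both groups received 0.05% phenobarbital, a barbiturate that promotes the growth of such tumours. The sample labels give the course as 27 weeks in drinking water, the design text as 28 to 36 weeks in the diet and the treatment protocol as 28 days, so the true course is unsettled. The other 6 arrays, 3 Ha-ras-mutated tumours and 3 non-tumour livers without phenobarbital, are used here only for the shared estimate of the spread and for 1 test of a difference. Which mutation of Ctnnb1 each tumour carries, and whether the control pieces came from tumour-bearing animals, is not given in the sources used here. No label states that the samples of a group came from separate animals, so that the p-values measure the spread between these samples.

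Beta-catenin is the transcriptional arm of the canonical Wnt pathway: when it is not degraded it enters the nucleus, binds TCF/LEF factors and switches on target genes. In normal liver this pathway is active in the hepatocytes around the central vein, which make glutamine from ammonium, while hepatocytes around the portal vein carry out the urea cycle, gluconeogenesis and the breakdown of several amino acids. Mutations that stabilise beta-catenin are frequent in mouse liver tumours that grow under phenobarbital.

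Levels below are log2 RMA intensities, on which a difference of 1 is a doubling. Controls are given in the order of phenobarbital controls 4, 5 and 6, tumours as lowest to highest with the median, and a difference is the tumour mean minus the control mean with its standard error (n = 7 and n = 3). The arrays had medians between 5.03 and 5.10. Control 6 stood apart: the gap between its 3′ and 5′ Gapdh probe sets, a sign of RNA quality, was 2.70 against −0.15 to 0.32 in the other 15 arrays, and its gap for actin was 3.87 against 1.38 to 1.96. The tissue carried the hepatocyte marker Alb, serum albumin, at a level of 14.97, 14.97 and 14.86 in the controls and 14.91 to 15.06 in the tumours. Over 9 measured hepatocyte markers the mean level was 13.63 to 14.00 in the tumours and 14.10, 14.11 and 13.80 in the controls. Of these markers 2 fell (22.2%), Cps1 and Serpina1c, or 1 without any 1 of the controls, and none rose. On the first principal component of the 10 arrays, with 40.2% of the variance, the tumours lay between −36.8 and −9.32 and the controls between 36.0 and 50.7.

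At an adjusted p under 0.05, 2192 genes passed (12.0% of those tested), of which 1105 rose in the tumours (6.07%) and 1087 fell (5.97%). Without phenobarbital control 6 the count was 1337, with 664 higher and 673 lower, and 1134 of these genes were among the 2192. A call is named held below where it also passed in each of the 10 fits that left out 1 array of the comparison. There were 833 held calls (4.58%), 423 of them higher (2.33%) and 410 lower (2.25%), and 402 reached a 2-fold difference. In 2292 genes (12.6%) no tumour overlapped a control, with the tumours above in 1084 (5.96%) and below in 1208 (6.64%). Of the 833 held calls 813 had no overlap. The lack of overlap given beside held calls below therefore mostly follows from the choice of held calls. The text below names mainly held calls, and "rose" and "fell" are used only for genes that passed.

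The 15 largest rises and 15 largest falls were taken from held calls in which no tumour overlapped a control, so that the lack of overlap in them follows from the choice. Afp, the serum protein of the fetal liver, had a level of 5.95, 7.22 and 9.73 in the controls and 10.48 to 12.79 (median 11.99) in the tumours, a difference of 4.33 ± 0.59. It was 3.48 without control 4, 5.38 without control 6 and 2.63 as the mean of all Afp probe sets. Gpc3, a heparan sulphate proteoglycan of the cell surface, went from a level of 4.45, 5.41 and 5.38 to 7.57 to 10.74 (median 9.25) and rose by 4.06 ± 0.58. The levels of Gpc3 were spread more widely among the tumours than among the controls, and control 6 was the highest control of Afp. Aplnr, the receptor of the peptide apelin, was low in all controls at 3.23, 3.48 and 3.49, while the tumours spanned 4.29 to 8.10 (median 7.75), the lowest being tumour 2. Its difference was 3.60 ± 0.73, or 2.02 over all its probe sets. The control levels of Aplnr, like those of Arg2, lay below the medians of the arrays, in a range that includes background. Calml4, a calmodulin-like protein, rose from a level of 6.02, 7.35 and 8.53 to 10.42 to 11.11 (median 10.84), and the tumours lay within 1 unit of each other. The difference of Calml4 was 3.52 ± 0.35, with 2.88 without control 4 and 4.13 without control 6. Gipc2, a PDZ domain protein, differed by 3.67 ± 0.56 (2.97 without control 4) and Ly6d, a small membrane-anchored protein, by 3.40 ± 0.51 (2.77 without control 4, 4.09 without control 6).

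Several of the other largest rises were in genes known from epithelia outside the liver or from the nervous system. Krt4, a keratin of squamous epithelium, stood at a level of 5.57, 6.56 and 6.39 in the controls and 7.32 to 10.00 (median 9.46) in the tumours and rose by 2.96 ± 0.43 on the log2 scale. Sprr1a, a protein of the cornified cell envelope, rose by 2.54 ± 0.41 from a level of 5.76, 5.74 and 7.13 to 7.74 to 9.73 (median 8.94). Nptx1, a neuronal pentraxin, rose by 3.18 ± 0.40, its level being 3.38, 5.03 and 4.92 in the controls and 6.59 to 8.71 (median 7.66) in the tumours. The gap between the lowest tumour and the highest control was, of these 3 genes, widest for Nptx1. Secreted and matrix proteins made up a further group. Lcn2, a lipocalin that binds bacterial siderophores, rose by 2.96 ± 0.58, Tinag, an antigen of basement membranes, by 2.92 ± 0.39 and Adamtsl4, a secreted ADAMTS-like protein, by 2.60 ± 0.31. Nt5e, the ecto-nucleotidase that makes extracellular adenosine, rose by 2.55 ± 0.42 and Nxpe2 by 2.59 ± 0.47, while over all their probe sets these differences were 1.42 and 1.38.

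The largest falls were led by enzymes. Etnppl, which breaks down phosphoethanolamine, was at a level of 12.22, 12.68 and 12.30 in the controls and 5.37 to 8.15 (median 7.39) in the tumours, a difference of −5.23 ± 0.61. Hal, which starts histidine breakdown, fell from 11.62, 11.43 and 11.03 to 5.71 to 7.93 (median 7.51), a difference of −4.35 ± 0.43 on the log2 scale. Cyp2f2, a P450 of periportal hepatocytes, fell by 4.19 ± 0.83, from a level of 13.59, 13.37 and 12.57 to 6.20 to 10.88 (median 9.22). The tumours were spread widest in Cyp2f2, and control 6 was the lowest control of both Hal and Cyp2f2. Aspg, an asparaginase, went from 9.68, 9.32 and 9.04 to 4.13 to 6.70 (median 5.71), a difference in level of −3.73 ± 0.43. Gldc, the decarboxylase of the glycine cleavage system, differed by −3.53 ± 0.53 and Sfxn1, the mitochondrial serine carrier, by −3.33 ± 0.43. Among enzymes of aldehydes, retinol and cholesterol, the differences were −3.61 ± 0.53 for Aldh1b1, −3.72 ± 0.39 for Rdh16f2 and −3.32 ± 0.44 for Cyp46a1.

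Membrane and secreted proteins were also among the largest falls. Aqp4, a water channel, had control levels of 6.61, 6.86 and 5.94 and tumour levels of 2.44 to 3.22 (median 2.63), a difference of −3.76 ± 0.28, or −1.49 over all its probe sets. Olfm3, an olfactomedin domain protein, fell by 4.04 ± 0.29, from 7.69, 7.50 and 7.34 to 2.91 to 4.02 (median 3.35). The spread among the tumours was narrow in both genes, and their levels there were near the low end of the scale, which includes background. Mfsd2a, a lysophospholipid transporter, differed by −3.41 ± 0.69 and Mup10, a major urinary protein, by −3.68 ± 0.87. The probe sets of Mup genes share sequence, so that the member measured is uncertain. The hepcidin genes Hamp and Hamp2, which encode the iron-regulating hormone of the liver and its close copy, differed by −3.20 ± 0.73 and −3.61 ± 0.47 (−1.89 for Hamp2 as the mean of all its probe sets). The other Hamp2 probe set, with a mean level of 4.32, differed by −0.18 ± 0.13 and did not pass. As the genes are close copies, the member measured is uncertain here as well.

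**Figure D1:**
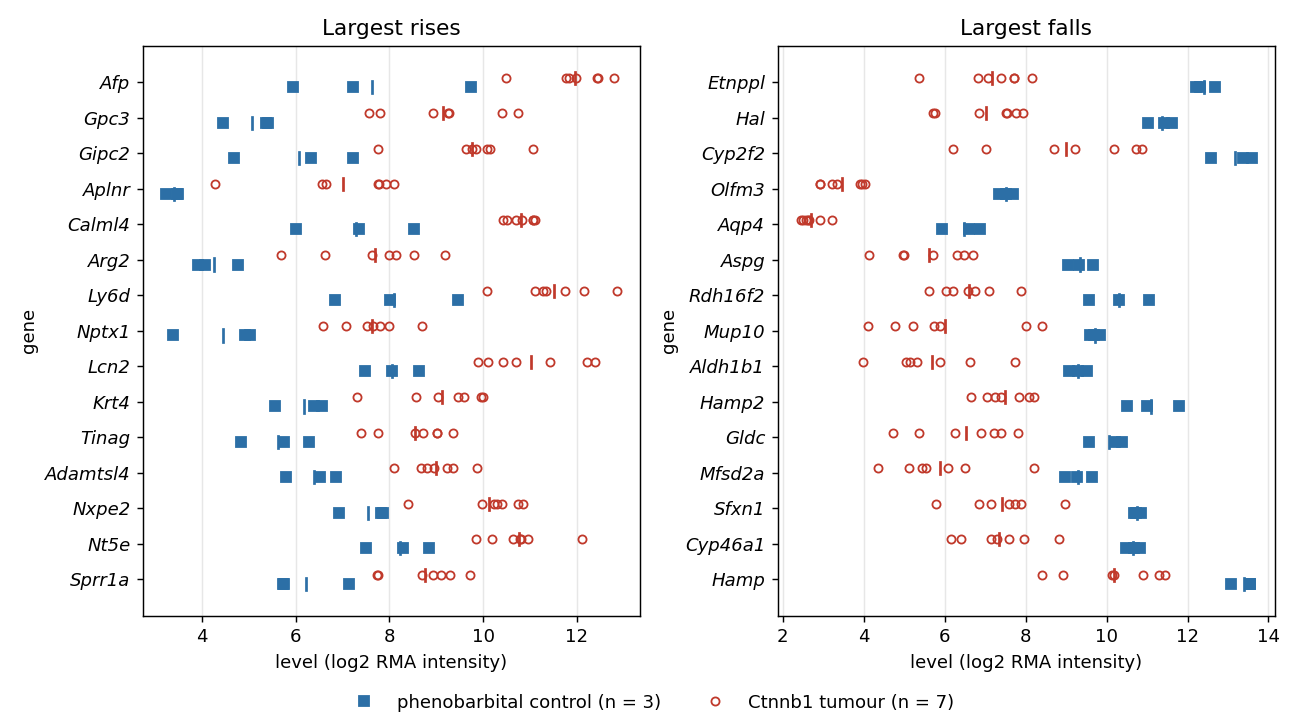
Levels (log2 RMA intensity, horizontal axis) of the 15 largest rises and 15 largest falls among held calls without overlap between groups; squares are the 3 phenobarbital controls, circles the 7 Ctnnb1 tumours, and short vertical lines the group means. The controls of Afp spread from 5.95 to 9.73, while all tumours of Afp lie at 10.48 or higher.

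The promoter windows of the 3 largest rises and 3 largest falls with a RefSeq entry are shown, since these genes changed most between the groups; Gipc2 and Aplnr had no entry. Each window covers 250 bases before to 50 bases after the annotated start in GRCm38.p6, written 5′ to 3′ on the strand of the gene. Capitals mark matches on either strand. The motifs searched were the TCF/LEF motif in its forms ATCAAAG and, as the second form, TTCAAAG; the TATA box as TATAAA; part of an HNF1 site as GTTAAT; and an HNF4 motif as CAAAGTC.
Afp, chr5:90490464-90490763, plus strand: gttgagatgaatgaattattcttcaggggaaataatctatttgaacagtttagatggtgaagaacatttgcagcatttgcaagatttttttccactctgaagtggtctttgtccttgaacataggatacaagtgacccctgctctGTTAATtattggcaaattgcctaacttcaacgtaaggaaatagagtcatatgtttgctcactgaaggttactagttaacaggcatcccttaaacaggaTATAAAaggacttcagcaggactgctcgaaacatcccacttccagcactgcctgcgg
Gpc3, chrX:52613925-52614224, minus strand: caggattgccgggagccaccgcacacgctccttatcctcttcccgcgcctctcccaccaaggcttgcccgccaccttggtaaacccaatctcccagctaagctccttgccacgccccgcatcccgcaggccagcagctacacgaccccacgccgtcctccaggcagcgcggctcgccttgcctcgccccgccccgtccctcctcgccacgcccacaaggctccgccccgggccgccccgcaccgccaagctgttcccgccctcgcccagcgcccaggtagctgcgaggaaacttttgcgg
Calml4, chr9:62857854-62858153, plus strand: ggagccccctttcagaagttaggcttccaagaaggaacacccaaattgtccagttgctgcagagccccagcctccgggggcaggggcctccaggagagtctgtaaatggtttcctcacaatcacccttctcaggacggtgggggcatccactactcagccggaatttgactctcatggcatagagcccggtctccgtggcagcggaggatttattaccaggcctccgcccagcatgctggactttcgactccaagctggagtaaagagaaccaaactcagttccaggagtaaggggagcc
Etnppl, chr3:130617198-130617497, plus strand: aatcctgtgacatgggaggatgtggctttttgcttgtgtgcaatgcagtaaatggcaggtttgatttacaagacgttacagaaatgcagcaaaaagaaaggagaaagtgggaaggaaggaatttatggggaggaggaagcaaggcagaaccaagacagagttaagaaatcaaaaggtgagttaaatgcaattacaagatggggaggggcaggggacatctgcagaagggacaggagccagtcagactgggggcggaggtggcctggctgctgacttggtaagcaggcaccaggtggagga
Hal, chr10:93488518-93488817, plus strand: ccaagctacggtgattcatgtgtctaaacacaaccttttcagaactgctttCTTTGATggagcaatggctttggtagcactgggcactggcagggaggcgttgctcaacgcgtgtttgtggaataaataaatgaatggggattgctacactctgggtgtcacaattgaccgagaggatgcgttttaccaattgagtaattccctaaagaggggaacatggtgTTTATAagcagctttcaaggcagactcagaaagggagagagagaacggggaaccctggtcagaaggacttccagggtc
Cyp2f2, chr7:27119705-27120004, plus strand: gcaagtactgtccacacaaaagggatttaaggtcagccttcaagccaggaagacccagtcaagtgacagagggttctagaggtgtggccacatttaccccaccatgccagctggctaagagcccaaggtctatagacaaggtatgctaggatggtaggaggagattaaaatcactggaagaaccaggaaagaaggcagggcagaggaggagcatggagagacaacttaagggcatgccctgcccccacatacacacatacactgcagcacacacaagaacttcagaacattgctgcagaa

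These windows held 4 matches. Afp had TATAAA at position −7 and GTTAAT at position −105 from the annotated start, both on the strand of the gene. Hal, which fell, had the TCF/LEF form ATCAAAG at −199 and TATAAA at −28, both on the opposite strand. No match to these letters was found in the windows shown of Gpc3, Calml4, Etnppl and Cyp2f2. Etnppl had 2 annotated windows, of which only the first was searched and shown. Among 27025 promoter windows of the same length, 8.8% held a TCF/LEF form, 14.2% TATAAA, 7.2% GTTAAT and 4.4% CAAAGTC. The Gpc3 window was the richest in G and C of those shown, at 70.7%, and that of Afp the poorest, at 40.0%. A match is a description of the letters and not a site of binding.

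For 11 of these 30 genes the change differed from that of Ha-ras tumours against their own controls, by the interaction in the same fit. Over all genes 988 passed that test (5.43%), 389 with a higher change in the Ctnnb1 comparison (2.14%) and 599 with a lower one (3.29%). The 30 genes were chosen for the size of the Ctnnb1 change, so these differences are not independent of the choice, and mutation and phenobarbital go together in them. Rdh16f2 fell in the Ctnnb1 comparison while its Ha-ras change was 2.76 ± 0.46, a difference between the changes of −6.48 ± 0.60 (adjusted p = 9.14e-06). Aldh1b1 likewise had a Ha-ras change of 1.99 ± 0.63, and the changes differed by −5.60 ± 0.83. The Ha-ras changes of Hal (0.08 ± 0.51), Aspg (−0.25 ± 0.50), Gldc (0.32 ± 0.63) and Sfxn1 (0.69 ± 0.51) were each smaller than 1 unit. Of the rises, Nxpe2 had a Ha-ras change of −1.30 ± 0.55 and Nptx1 of −0.82 ± 0.48. Arg2, Krt4 and Adamtsl4 had Ha-ras changes of 0.24 ± 0.62, −0.33 ± 0.51 and 0.04 ± 0.36. The other 19 genes did not pass, among them Afp, with a difference between the changes of 0.15 ± 0.91, and Gpc3, with −0.17 ± 0.90.

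**Figure D2:**
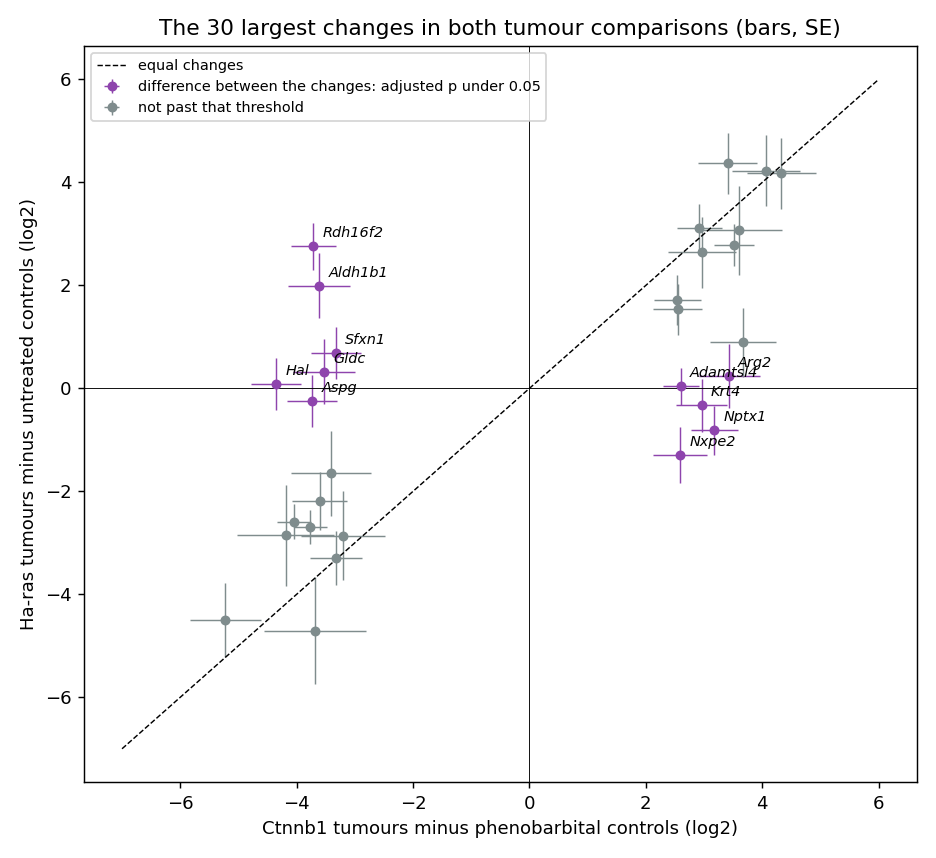
Change in Ctnnb1 tumours (horizontal axis, log2, against phenobarbital controls) and in Ha-ras tumours (vertical axis, log2, against untreated controls) for the 30 largest Ctnnb1 changes, with standard errors; the dashed line marks equal changes. The 11 named genes, for which the difference passed, lie off the line, with Rdh16f2 and Aldh1b1 on opposite sides of 0 in the 2 comparisons.

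The mutated gene itself did not pass the test at the mRNA level. Ctnnb1 had a level of 12.29, 12.34 and 12.53 in the controls and 12.20 to 12.54 (median 12.46) in the tumours, a difference of 0.04 ± 0.09 with a 95% interval of −0.15 to 0.23. The other probe sets of Ctnnb1, with lower mean levels, differed by 1.14 ± 0.41 and 0.61 ± 0.23 and did not pass either (adjusted p = 0.0927 and 0.108 over all probe sets). These levels carry no information on mutation. Of 21 Wnt feedback and target genes 8 rose and 1 fell (38.1% and 4.8%), with a median difference of 0.98 against −0.03 over all genes. The count of rises was 3 without control 4 and 5 without control 5, and the count of falls 0 without control 6 and 2 without control 5. Held rises were those of Rnf43, Tnfrsf19 and Myc. Rnf43, a ubiquitin ligase that removes Wnt receptors, stood at 6.68, 6.78 and 7.51 in the controls and 7.25 to 8.66 (median 8.29) in the tumours, a difference in level of 1.23 ± 0.26. Tnfrsf19, a receptor of the TNF family, rose by 1.67 ± 0.29, from a level of 7.62, 7.76 and 7.69 to 8.37 to 9.95 (median 9.51) (0.98 over all its probe sets). Myc, the transcription factor, rose by 1.64 ± 0.35. The tumours did not overlap the controls in Tnfrsf19 and Myc, while the lowest tumour of Rnf43, tumour 6, lay below control 6.

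Further target genes passed with less stability. The difference of Sp5, a transcription factor under direct Wnt control, was 2.32 ± 0.63 (adjusted p = 0.0266), and its call was lost without control 4 (adjusted p = 0.0978), control 5 (0.0576) or control 6 (0.0548) and with only the 10 arrays compared (0.0762). Lgr5, a receptor of R-spondins, rose by 2.57 ± 0.58, with a call lost without control 4 (2.10, adjusted p = 0.0561) and a difference of 1.38 over all its probe sets. Axin2, the feedback inhibitor of the pathway, rose by 1.27 ± 0.38 (adjusted p = 0.0423), and that call was lost without any 1 of the arrays except tumour 6, with an adjusted p of up to 0.123. It was also lost with only the 10 arrays compared (0.0959), with the mean of all its probe sets (0.71, adjusted p = 0.0542) and with a trended prior (0.0528). Ccnd1, the G1 cyclin, had a difference of 0.98 ± 0.42 (adjusted p = 0.139), which passed without control 6 (1.53, adjusted p = 0.0367). Wif1, a secreted Wnt inhibitor, had a difference of 2.84 ± 0.91 (adjusted p = 0.0535), with tumours ranging over 2.97 to 8.82 (median 5.41), and passed without tumour 5, 6 or 7 (3.06, 3.33 and 3.07).

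In pericentral genes 1 tumour stood apart from the rest. Glul, the glutamine synthetase, had levels of 11.21, 12.79 and 13.54 in the controls and 12.07 to 14.13 (median 13.80) in the tumours, with a difference of 1.08 ± 0.44 (95% interval 0.14 to 2.02, adjusted p = 0.126). It passed without tumour 6 (1.34, adjusted p = 0.0261), with array weights (1.64) and with its most variable probe set (2.34), and was 0.43 without control 4. Rhbg, an ammonium carrier, had levels of 7.52, 8.94 and 9.62 and 7.91 to 11.42 (median 10.92), a difference of 1.86 ± 0.60 (adjusted p = 0.0534) that passed without tumour 6 (2.30, adjusted p = 0.000747) and was 1.27 without control 4. Cyp1a2, a pericentral P450, differed by 0.61 ± 0.33 (95% interval −0.09 to 1.32) and passed without tumour 6 (0.83, adjusted p = 0.0406). Slc1a2, a glutamate carrier, differed by 1.71 ± 0.86 and passed without tumour 6 (2.28, adjusted p = 0.0227). In Axin2, Sp5, Glul, Rhbg and Cyp1a2 tumour 6 was the lowest of the 7, and the controls of Glul and Rhbg were themselves spread over more than 2 units. Cyp2e1, another pericentral P450, differed by 0.10 ± 0.19 (95% interval −0.31 to 0.51) and Cyp2b10, the P450 induced by phenobarbital, by 0.20 ± 0.43 (95% interval −0.72 to 1.12).

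**Figure D3:**
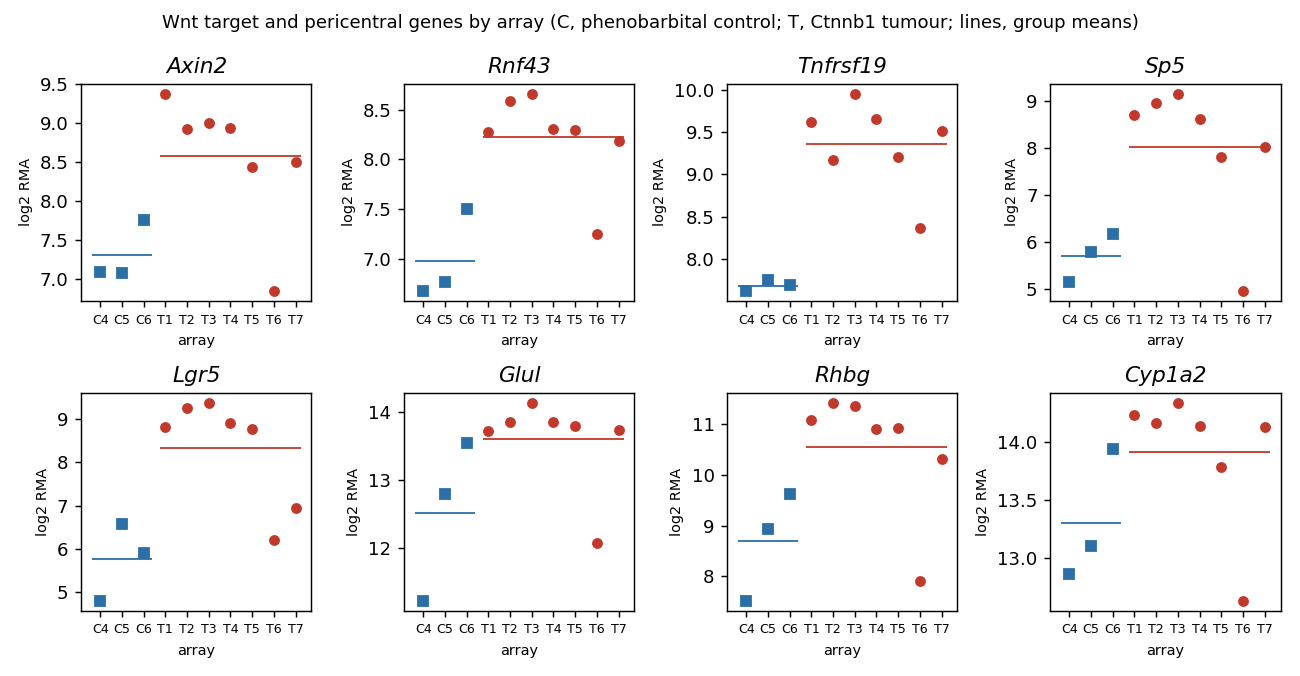
Level (log2 RMA intensity, vertical axis) of 8 Wnt target and pericentral genes in each array; squares C4 to C6 are the phenobarbital controls, circles T1 to T7 the Ctnnb1 tumours, and lines the group means. Tumour 6 is the lowest tumour in all 8 panels, and for Axin2, Sp5 and Cyp1a2 it lies below all controls.

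Upstream of beta-catenin, 30 of 37 ligands, receptors and members of the destruction complex did not pass, 6 fell (16.2%) and 1 rose, with a median difference of −0.05, or 0.007 without control 6. The rise, in Wnt5a, was lost without any 1 of 7 arrays. Rspo3, an R-spondin that is made by endothelial and stellate cells of the liver, fell from a level of 6.40, 5.99 and 7.22 to 3.56 to 4.83 (median 4.53), a difference of −2.12 ± 0.30 (−1.12 over all its probe sets). Wnt4, a ligand, fell by 0.80 ± 0.15, and Lrp6, the co-receptor, fell from 9.35, 9.23 and 8.90 to 8.15 to 8.59 (median 8.44), a difference of −0.78 ± 0.12. These 3 falls were held, and no tumour overlapped a control in them. In bulk tissue fewer cells of a type and less RNA per cell cannot be told apart, and some markers of other cell types, given further below, also fell. The part of these cells in the fall of Rspo3 was not tested.

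Several enzymes exist as a liver form and as a form of other tissues. Of 9 liver forms measured 3 fell and none rose, and of 14 other forms 1 rose and 1 fell. Over all genes 6.07% rose and 5.97% fell. The counts are small, and no difference between liver forms and other forms was tested. Arginase showed both directions: Arg1, the cytosolic enzyme of the urea cycle, fell from a level of 13.16, 13.48 and 12.11 to 7.72 to 12.10 (median 10.04), a difference of −2.95 ± 0.68, while Arg2, the mitochondrial form, rose from 3.92, 4.06 and 4.78 to 5.69 to 9.20 (median 8.0), by 3.43 ± 0.53. No tumour overlapped a control in either gene. Fbp1, the liver fructose bisphosphatase, fell by 1.26 ± 0.21, with a 95% interval of −1.69 to −0.82, and the muscle form Fbp2 differed by 0.08 ± 0.14. Slc2a2, the liver glucose carrier, fell by 0.80 ± 0.19, a call lost without control 4 (−0.73, adjusted p = 0.0569), and Slc2a1, the carrier of most other tissues, differed by −0.17 ± 0.19.

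In no other isoenzyme family did a liver form and another form pass in opposite directions. Pyruvate kinase of liver, Pklr, had a difference of −0.49 ± 0.18 (adjusted p = 0.0909, or 0.0447 with only the 10 arrays compared) and the other form, Pkm, −0.03 ± 0.28 (95% interval −0.61 to 0.56). Among hexokinases the differences were −0.04 ± 0.16 for Hk1, −0.22 ± 0.26 for Hk2 and 0.11 ± 0.13 for Hk3. Of the phosphofructokinases, Pfkm of muscle fell by 0.42 ± 0.09, Pfkl of liver differed by −0.28 ± 0.19 and Pfkp by 0.26 ± 0.29. The aldolases Aldoa and Aldoc differed by 0.29 ± 0.22 and 0.01 ± 0.23. For glycogen synthase the difference was −0.39 ± 0.26 in the liver form Gys2 and −0.20 ± 0.10 in Gys1, and for glycogen phosphorylase 0.12 ± 0.17 in Pygl and 0.90 ± 0.34 in Pygb. Mat1a, the liver enzyme of S-adenosylmethionine synthesis, differed by −0.65 ± 0.27, and passed without control 6 (−1.03, adjusted p = 0.0223). The carnitine palmitoyltransferases Cpt1a and Cpt1c differed by 0.34 ± 0.21 and −0.12 ± 0.17.

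Over 41 pathway lists with 1081 measured genes, 96 rose and 137 fell, 50 and 66 of them as held calls. Some lists share genes, and their counts are given as descriptions beside those of all genes.

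**Figure D4:**
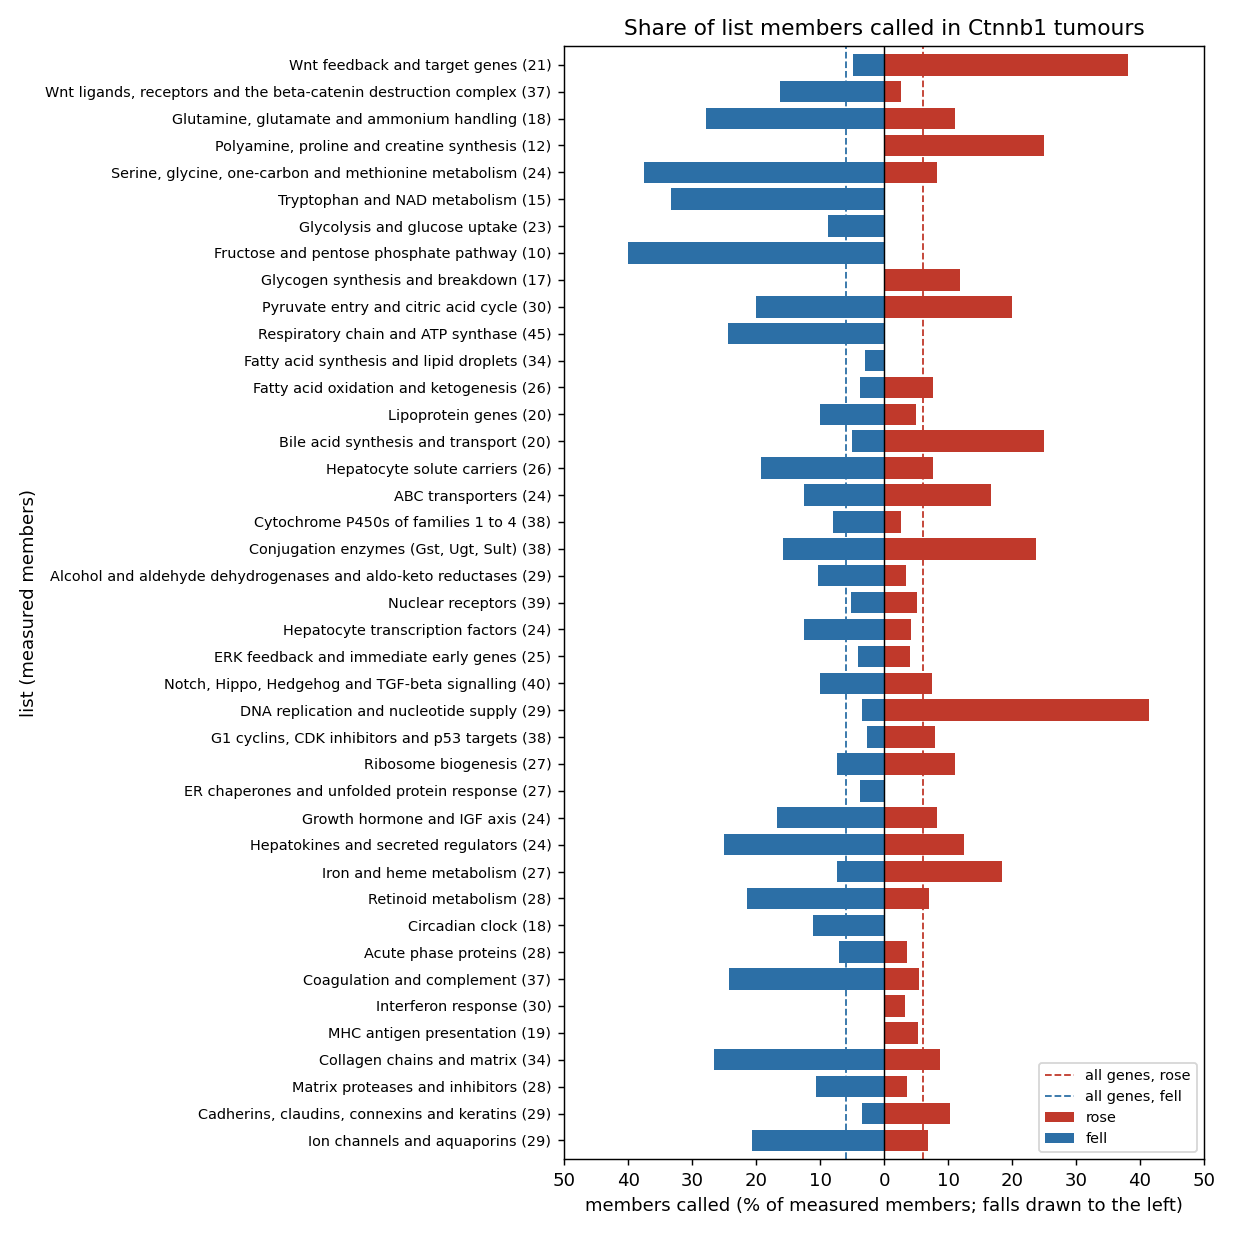
Share of the measured members of each list (number in brackets) that rose (bars to the right) or fell (bars to the left), in percent; dashed lines mark the shares of all genes, 6.07% and 5.97%. DNA replication (41.4%) and Wnt feedback and target genes (38.1%) have the longest bars to the right, fructose and pentose phosphate pathway (40.0%) and serine and methionine metabolism (37.5%) the longest to the left.

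Nitrogen metabolism had held falls and held rises. Of 24 genes of serine, glycine, folate and methionine metabolism 9 fell (37.5%), 6 of them as held calls, with a median of −0.37. Beside Gldc these included Ftcd, which passes the formimino group of histidine to folate (−1.47 ± 0.29), Cth, the cystathionine lyase (−1.10 ± 0.21), Sardh, the sarcosine dehydrogenase (−1.09 ± 0.18), and Mthfd1, a folate interconverting enzyme (−0.68 ± 0.13). The 2 rises, in Psat1 and Mthfd2, were both lost without control 4 or control 5, and 1 of them without tumour 1, 4, 5 or 7. Of 18 genes of glutamine, glutamate and ammonium handling 5 fell (27.8%) and 2 rose (11.1%), with 5 rises without tumour 6. Got1, the cytosolic aspartate aminotransferase, fell from a level of 12.64, 12.64 and 11.10 to 5.96 to 9.97 (median 9.55), a difference of −3.17 ± 0.71. Slc38a4, an amino acid carrier, fell by 0.63 ± 0.13, and Slc1a4, a carrier of small neutral amino acids, rose by 2.37 ± 0.33, from 6.84, 7.17 and 7.87 to 8.83 to 10.45 (median 9.88). The highest tumour lay below the lowest control for Got1 and Slc38a4, and for Slc1a4 every tumour lay above.

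In polyamine, proline and creatine metabolism 3 of 12 genes rose (25.0%) and none fell. All 3 were held: Arg2, Sat1, which acetylates polyamines (0.83 ± 0.15), and Slc6a8, the creatine carrier (0.80 ± 0.15). Of 15 genes of tryptophan and NAD metabolism 5 fell (33.3%), with 3 left without tumour 3 or control 6 and 2 without control 5. The held falls were those of Nnmt, which methylates nicotinamide, and Kynu, the kynureninase. Nnmt had levels of 7.83, 10.26 and 9.63 in the controls and 4.78 to 8.35 (median 5.21) in the tumours, a difference of −3.59 ± 0.72, or −4.30 without control 4. Its highest tumour, tumour 2, overlapped the controls. Kynu fell by 1.88 ± 0.32. Of 26 hepatocyte solute carriers 5 fell (19.2%), or 3 without control 4, and 2 rose (7.7%). Slc7a2, the arginine carrier, fell from 12.01, 12.15 and 12.32 to 9.53 to 11.03 (median 9.96), a difference of −1.96 ± 0.27, and Slc25a15, the mitochondrial ornithine carrier, fell by 1.14 ± 0.16. Cps1, the carbamoyl phosphate synthetase that starts the urea cycle, fell by 2.17 ± 0.37, from a level of 13.82, 13.94 and 13.94 to 10.65 to 13.28 (median 11.60).

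In carbohydrate metabolism 4 of 10 genes of the fructose and pentose phosphate pathways fell (40.0%), or 2 without control 6. The held falls were Khk, the fructokinase (−0.63 ± 0.13), and Tkfc, which phosphorylates dihydroxyacetone and glyceraldehyde (−0.68 ± 0.11). Of 17 glycogen genes 2 rose (11.8%). These were Gyg, the primer of glycogen synthesis (0.94 ± 0.15, or 1.45 with its most variable probe set), and Pgm2, whose call was lost without control 6. In the glycolysis list, with 23 genes, only Pfkm and Slc2a2 passed (8.7%). Of 30 genes of pyruvate entry and the citric acid cycle 6 rose, or 3 without control 6, and 6 fell. Pdk1, a kinase that inhibits pyruvate dehydrogenase, differed by −1.30 ± 0.19 (−2.13 with its most variable probe set) and Sdhb, of succinate dehydrogenase, by −0.69 ± 0.13. Idh3a, of isocitrate dehydrogenase, rose by 1.24 ± 0.20, or 0.71 over all its probe sets.

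Of 45 genes of the respiratory chain and ATP synthase 11 fell (24.4%) and none rose, with 7 falls without control 4 and 6 without control 6. Ndufa5 and Ndufb8, both subunits of complex I, were held: Ndufa5 fell from a level of 10.98, 11.04 and 11.70 to 9.92 to 10.41 (median 10.28), a difference of −0.98 ± 0.14, and Ndufb8 differed by −0.65 ± 0.11. The tumours did not overlap the controls in either. In lipid metabolism 1 of 34 fatty acid synthesis genes (2.9%) and 3 of 26 oxidation genes (11.5%) passed, against 12.0% of all genes. None of these calls was held. Among 20 lipoprotein genes the held calls were falls of Apoa5, an activator of triglyceride clearance (−1.16 ± 0.24), and Apoc3, an inhibitor of that clearance (−0.42 ± 0.09).

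Bile acid genes rose in 5 of 20 cases (25.0%), or 3 without control 6, and the only fall, in Cyp8b1, was not held. Held rises were those of Abcc2, the canalicular export pump (0.89 ± 0.16), and Acox2, an oxidase of bile acid side chains (0.64 ± 0.12). Abcc4, an export pump of the sinusoidal membrane, rose by 2.78 ± 0.61, with control levels of 7.18, 7.88 and 9.04 and tumour levels of 8.87 to 12.44 (median 10.57), among which the lowest tumour lay below control 6. Abcc9, a subunit of potassium channels, fell by 1.40 ± 0.22. Slc13a2, a citrate carrier, fell by 1.26 ± 0.16, and Slc39a4, a zinc carrier, rose by 1.48 ± 0.22.

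Of 38 conjugation enzymes 9 rose (23.7%), or 5 without control 6, and 6 fell, or 3 without control 5 or control 6. Of the 9 rises 7 were of glutathione transferases. Gstm2 rose from a level of 10.24, 10.71 and 10.90 to 11.87 to 12.93 (median 12.43), by 1.79 ± 0.25, with no overlap. Gstm6 rose by 1.86 ± 0.36, Gstm4 by 1.18 ± 0.19 and Gsta4 by 1.08 ± 0.21, while Gstk1, the mitochondrial transferase, fell by 1.04 ± 0.17. Probe sets of Gst genes share sequence, so that the member measured is uncertain. Ugt2b38, a glucuronosyltransferase, differed by −2.41 ± 0.49 (−1.65 without control 4) and Sult5a1, a sulphotransferase, by −1.85 ± 0.34 (−2.45 without control 4). Of 38 P450s of families 1 to 4, Cyp2f2 and Cyp2u1 (−1.28 ± 0.24) fell as held calls and no rise was held. Among 29 alcohol and aldehyde dehydrogenases and aldo-keto reductases, Aldh3a2, which oxidises fatty aldehydes, rose by 1.86 ± 0.29, from 9.61, 10.42 and 9.23 to 11.06 to 12.12 (median 11.73), and Aldh1b1 fell.

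Among regulators, 10.3% of the nuclear receptor list and 16.7% of the hepatocyte transcription factor list passed, against 12.0% of all genes. The share was 17.5% in the Notch, Hippo, Hedgehog and TGF-beta list and 8.0% in that of ERK feedback and immediate early genes. Among 39 nuclear receptors and partners the held calls were rises of Ahr, the aryl hydrocarbon receptor, and Pparg. Ahr had levels of 9.91, 10.36 and 10.07 in the controls and 11.10 to 11.77 (median 11.58) in the tumours, a difference of 1.44 ± 0.16, or 0.87 over all its probe sets, and Pparg, a regulator of fat storage, rose by 1.49 ± 0.30. In both no tumour overlapped a control. Of 24 hepatocyte transcription factors and co-activators 1 rose and 3 fell, 2 of the falls as held calls: Cebpa, a factor of hepatocyte differentiation (−0.92 ± 0.13), and Ppargc1b, a co-activator of mitochondrial genes (−1.80 ± 0.33). Hnf4a differed by 0.06 ± 0.13, with a 95% interval of −0.21 to 0.34, and by 0.35 over all its probe sets, of which none passed. In the Notch, Hippo, Hedgehog and TGF-beta list 3 of 40 genes rose and 4 fell. Wwtr1, the Hippo effector TAZ, rose by 0.85 ± 0.17, from 8.13, 8.16 and 8.12 to 8.74 to 9.46 (median 8.90), Tgfbr2, a receptor of TGF-beta, rose by 1.01 ± 0.17 (0.41 over all its probe sets), and Bmp2, a ligand that liver endothelium makes, fell by 1.76 ± 0.37. Of 25 ERK feedback and immediate early genes 1 rose and 1 fell, neither as a held call.

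Genes of DNA replication rose in 12 of 29 cases (41.4%) and 1 fell, with a median of 0.40. The count of rises was 6 without tumour 1 or tumour 6 and 7 without tumour 4 or control 5, and the fall was lost without control 6. Mcm6, of the replicative helicase, rose from a level of 7.09, 6.83 and 7.68 to 7.91 to 9.22 (median 8.66), by 1.38 ± 0.23 (0.91 over all its probe sets). Rfc4, of the clamp loader, rose by 1.05 ± 0.20 and Cdc6, a licensing factor, by 1.04 ± 0.23. The mean level of Cdc6 over all arrays was 3.81, below the medians of the arrays, in a range that includes background. In the list of G1 cyclins, CDK inhibitors and p53 targets 3 of 38 genes rose and 1 fell, all as held calls. The share that passed was 10.5%, against 12.0% of all genes. There were 5 rises without tumour 2, tumour 3 or control 6. Cdk6, a kinase of G1, rose by 0.92 ± 0.19, Cdkn2c, its inhibitor, rose from 7.07, 7.41 and 7.48 to 8.32 to 9.32 (median 8.85), by 1.50 ± 0.18, and Rbl1, a pocket protein related to the retinoblastoma protein, by 1.56 ± 0.21 (0.40 over all its probe sets). Nhp2, of the small nucleolar ribonucleoproteins, was the held call among 27 ribosome biogenesis genes (0.78 ± 0.11).

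In the growth hormone and IGF axis 2 of 24 genes rose (8.3%) and 4 fell (16.7%). Igfbp1, a binding protein of IGFs, had levels of 12.10, 11.24 and 10.71 in the controls and 12.76 to 13.06 (median 12.94) in the tumours, a difference of 1.55 ± 0.20. Igf2r, the receptor that clears IGF2, rose from 8.12, 8.37 and 8.23 to 9.45 to 10.25 (median 9.88), by 1.55 ± 0.17. The tumours of both genes lay above all controls. Egfr, the receptor of EGF, fell by 1.80 ± 0.23 (−0.76 over all its probe sets), from a level of 12.34, 11.27 and 11.44 to 9.42 to 10.37 (median 9.96), and Mup3, a major urinary protein that depends on growth hormone, fell by 2.74 ± 0.51 (−1.60 over all its probe sets). Igf1 differed by −1.37 ± 0.57 (adjusted p = 0.131), or −2.10 without control 6 (adjusted p = 0.0386). It also passed with the mean of its probe sets (−1.83), with the most variable of them (−2.15) and with array weights (−2.03). Igf2 differed by 1.62 ± 0.79 (adjusted p = 0.204) with tumours over a range of 5.51 to 10.81 (median 6.57), or 1.0 without tumour 3.

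Of 27 genes of iron and heme 5 rose (18.5%) and 2 fell (7.4%), and 4 rises and both falls were held. Hamp had levels of 13.54, 13.54 and 13.08 in the controls and 8.41 to 11.44 (median 10.19) in the tumours. Hjv, the co-receptor needed for hepcidin expression, rose by 0.93 ± 0.22 and Blvrb, a biliverdin reductase, rose from a level of 10.94, 10.73 and 10.28 to 11.95 to 12.90 (median 12.44), by 1.86 ± 0.24. Fth1, the ferritin heavy chain, rose by 0.74 ± 0.18, but control 6 lay lowest for this gene (13.91, 13.87 and 12.76), and without it the difference was 0.37. It was 0.48 over all its probe sets and 0.44 with array weights. Among 24 hepatokines and secreted regulators, Lect2, a chemotactic protein of hepatocytes, rose by 1.59 ± 0.25, from 11.22, 12.00 and 12.38 to 12.82 to 13.78 (median 13.54), and Angptl6, an angiopoietin-like protein, fell by 1.09 ± 0.19.

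Of 28 retinoid genes 6 fell (21.4%), or 3 without control 5, and 2 rose. Lrat, which esterifies retinol for storage in stellate cells, fell from a level of 8.55, 8.17 and 7.85 to 5.01 to 6.91 (median 6.03), a difference of −2.13 ± 0.31. The retinol dehydrogenases moved apart: Rdh9 rose by 1.79 ± 0.31, from 10.34, 11.23 and 11.93 to 12.11 to 13.52 (median 13.11), while Rdh16f2 fell by 3.72 ± 0.39, from 9.55, 11.06 and 10.30 to 5.62 to 7.88 (median 6.57). Rbp7, a retinol binding protein of endothelial cells, rose by 1.74 ± 0.39. Of 37 coagulation and complement genes 9 fell (24.3%), or 5 without control 4, and 2 rose, or 1 without tumour 2, 3 or 4 or control 4 or 6. Held falls included C8a, of the membrane attack complex (−1.47 ± 0.30), Cfhr2, related to complement factor H (−1.12 ± 0.17), and F7, a clotting factor (−0.84 ± 0.13). Among 28 acute phase proteins Lcn2 was the held call. In the interferon list 1 of 30 genes rose (3.3%) and in the antigen presentation list 1 of 19 (5.3%), Cxcl10 and H2-Q2. Among 18 clock genes Cry1 and Bhlhe40 fell (11.1%). None of these 4 calls was held.

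Of 34 matrix genes 9 fell (26.5%) and 3 rose. The differences of the fallen genes were −2.01 ± 0.41 for Dpt, or dermatopontin, −1.51 ± 0.27 for Ecm1, and −1.41 ± 0.24 and −1.29 ± 0.27 for the small proteoglycans Bgn and Lum. Dcn, or decorin, fell from a level of 11.73, 11.34 and 11.34 to 7.99 to 10.45 (median 9.58), a difference of −2.04 ± 0.37. The rises were of basement membrane genes: Nid1, or nidogen, rose from 8.46, 7.96 and 8.30 to 9.69 to 11.22 (median 10.09), by 1.98 ± 0.25 (1.14 over all its probe sets), and Col4a1 by 0.97 ± 0.21. The fibrillar collagens Col1a1 and Col3a1 differed by 0.54 ± 0.39 and 0.19 ± 0.42, with tumour 6 the highest tumour in both. Of proteases and inhibitors, Reck, an inhibitor of matrix metalloproteinases, fell from 7.44, 7.44 and 7.69 to 4.64 to 5.49 (median 5.10), a difference of −2.46 ± 0.22, and Mmp13, a collagenase, rose by 1.79 ± 0.34.

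Some markers of other liver cells also fell. Of 14 stellate cell and fibroblast markers 8 fell (57.1%, against 5.97% of all genes) and none rose. The mean level of the 14 was 7.19 to 7.82 in the tumours against 8.49, 8.13 and 8.36 in the controls. Beside Lrat, Dcn, Ecm1 and Lum, which are also members of lists above, Colec11, a collectin, fell by 1.79 ± 0.22. Of 14 endothelial markers 5 fell (35.7%), with 2 or 3 left in 7 of the fits without 1 array. The mean level of the 14 was 6.80 to 7.81 in the tumours against 8.19, 8.03 and 7.76. Emcn, or endomucin, rose by 1.77 ± 0.32, against the direction of that list. Of 14 macrophage markers 3 fell (21.4%), among them Cd163, a scavenger receptor (−1.67 ± 0.34), and Folr2, a folate receptor (−1.42 ± 0.28). The mean level of the 14 was 7.69 to 8.48 in the tumours against 9.05, 8.79 and 8.39. For Cd163 alone the mean over all arrays was 4.67, below the medians of the arrays, in a range that includes background. The part of these cells in the falls of matrix, retinoid and signalling genes was not tested. Among 8 cholangiocyte markers 1 fell, a call lost without tumour 3, 4 or 6 or control 4 or 6, and Krt19 differed by −0.39 ± 0.18 (adjusted p = 0.174, or 0.0411 without tumour 1). No marker of T, B and NK cells (10 measured), neutrophils (7), erythroid cells (5), adipocytes (4) or acinar cells (5) passed, though 1 of T, B and NK cells did without tumour 1 and 1 of acinar cells without tumour 6.

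Of 29 cadherins, claudins, connexins and keratins 3 rose (10.3%) and 1 fell (3.4%), against 6.07% and 5.97% of all genes. The 2 held calls were both rises. Krt8, a keratin of hepatocytes, rose from a level of 12.18, 12.05 and 12.64 to 12.84 to 13.40 (median 13.04), by 0.78 ± 0.14, and Cldn2, a claudin of tight junctions, by 0.91 ± 0.19 (0.61 without control 6). Cdh1, or E-cadherin, differed by −1.67 ± 0.61 (adjusted p = 0.086), with tumours over a range of 5.70 to 9.38 (median 8.01), and passed without tumour 2 (−1.91, adjusted p = 0.0450). Of 29 ion channels and aquaporins 6 fell (20.7%) and 2 rose (6.9%), with 3 falls and 2 rises as held calls. Kcnk1, a potassium channel, rose from 6.74, 7.34 and 8.25 to 8.78 to 10.27 (median 9.34), by 2.01 ± 0.32. Aqp7, a glycerol channel, rose by 1.19 ± 0.21, and Scnn1a, of the epithelial sodium channel, fell by 0.73 ± 0.13. The mean level of Aqp7 over all arrays was 4.20, below the medians of the arrays, in a range that includes background.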

How the data were processed

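Total RNA of 16 mouse liver samples was read on Affymetrix GeneChip arrays, 1 per sample. The deposited values are log2 intensities per probe set, made by the authors with RMA in R 2.14.1, per the submitters' processing notes; they were used without further scaling, and the number of arrays limits the precision. Of 45101 probe sets 34945 had 1 gene symbol in the platform annotation, 932 several and 9160 none, with 64 array controls; the probe set with the highest mean was kept for each of 18193 genes. Hras is not analysed here.

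The test was limma's moderated two-sided test (version 3.58.1, R 4.3.3), from lmFit and eBayes over 16 arrays with a coefficient for each group; p-values were adjusted after Benjamini and Hochberg across the 18193 genes, with 0.05 as the threshold. Where 1 array was left out of 3 controls, the spread was still pooled over all 4 groups. In data simulated from these arrays, this comparison recovered 84 of 100 genes changed by 1 and 96 of 100 changed by 2 (log2). It also called 14 unchanged genes. For the difference between the Ctnnb1 and Ha-ras changes, 59 and 89 of 100 were recovered, and 5 unchanged genes were called. These counts do not show how an array that stands apart affects the calls, so they are no measure of recovery in the real data.

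Genes named are the 15 largest rises and falls among held calls without overlap (gene models left out), up to 4 held calls per list and direction, up to 2 others per list, and a fixed set of Wnt, P450 and isoenzyme genes; the selection described among them was made with the values in view. The members and lists were chosen with earlier results of these data known. Motifs were searched in RefSeq promoter windows of GRCm38.p6; other coordinates were not used. Alternatives were other samples in the fit, a replicate block, dim genes left out, other probe set rules, rescaling, other eBayes settings, array weights and each array left out.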

Additional observations from a re-analysis of the deposited data

Results flagged for a closer look

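In 20 of the 164 named genes 1 of the 7 tumours stood apart from the other 6 by Dixon's test at 95%, which chance alone does in about 1 of 20 genes, or 8.2 of 164. Genes share arrays and move together, so these are not independent. Tumour 6 was the lowest for Gipc2 (7.75), Nxpe2 (8.39), Glul (12.07), Axin2 (6.84), Cyp1a2 (12.6), Rnf43 (7.25), Sp5 (4.96), Rhbg (7.91), Abcc2 (11.3) and Gstm6 (9.56), and the highest for the collagens Col4a1 (10.2), Col1a1 (7.77) and Col3a1 (10.8). The nearest other tumour was at 13.72 for Glul, 8.44 for Axin2, 7.82 for Sp5 and 9.48 for Col3a1. Tumour 7 was the highest for Aldoa (11.5) and the lowest for Ndufa5 (9.92), Slc25a15 (10.8) and Colec11 (7.48). Tumour 2 was the lowest for Aplnr (4.29) and the highest for Nnmt (8.35), and tumour 5 was the lowest for Ahr (11.1). All values are log2 levels.

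In 11 genes the change in Ctnnb1 tumours and that in Ha-ras tumours differed by the interaction test of limma. The difference was higher in the Ctnnb1 comparison for Arg2 (3.19), Nptx1 (3.99), Krt4 (3.29), Adamtsl4 (2.57) and Nxpe2 (3.89). It was lower for Hal (−4.43), Aspg (−3.48), Rdh16f2 (−6.48), Aldh1b1 (−5.60), Gldc (−3.85) and Sfxn1 (−4.01). These 11 were found among 30 genes chosen for a large Ctnnb1 change.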

How the results depend on the processing

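The count of 2192 genes that passed was between 1337 (without phenobarbital control 6) and 2219 (without control 5) when 1 array was left out. The genes that rose then numbered 664 to 1091 and those that fell 673 to 1128, against 1105 and 1087. With only the 10 arrays compared 735 genes rose. Under the other settings without a block the count lay between 1492 and 2444. The count for the difference between the Ctnnb1 and Ha-ras changes was 988, 842 to 1177 with 1 array left out and 1547 with array weights, and the part of it that was higher in the Ctnnb1 comparison 389, 333 to 481 and 685; its lower part was 599, 482 (without control 4) to 696 and 862. The cause was not tested.

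Replicate numbers 4 to 6 occur in both groups, and no label says what they mean. The deviations of same-numbered arrays from their group means had r = 0.13, 0.09 and −0.12 across genes. With 3 controls, 1 of which stands apart, these values cannot show whether such arrays belong together. With the replicate number as a fixed block 255 genes passed, 121 higher and 134 lower, and the fit then rests on the arrays that share a number; with a random block 1566 passed. Of 129 named genes that passed, 125 kept direction and call in every setting but the blocks, and the text names the others beside their values. Genes were named mainly as held calls, so that passing without any 1 array follows from the choice. Over all genes 833 of the 2192 calls were held, and 1359 were lost in at least 1 fit without an array. With the fixed block 80 of the 129 no longer passed, and with the random block 2. No named gene that passed turned its direction. Of 88 other probe sets of such genes 83 had the same direction, but only 52 passed in it. None passed in the opposite direction. The precision is limited by 3 controls, 1 of which stands apart.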
